A study of Mus musculus with 3 samples.

Results

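The genes Klf2, S1pr1, Gimap3, Gimap4, Gimap6, Ms4a4b and Ms4a6b, which are used late in thymocyte maturation and at exit from the thymus, were followed through 2 kinds of thymus culture. They were chosen as a list of 7 symbols out of 32285 genes in the expression matrix, and all 7 were found. Their counts were read in thymocyte classes, of which 2969 cells had 1 productive T-cell receptor β (TRB) chain, and in 1341 other lymphoid cells. These were among 5937 immune cells and 8392 cells in all. Values of a class hold all its cells, also those without a TRB chain, unless chain status is named. Wild-type mouse tissue was profiled on culture day 13 by single-cell RNA sequencing in 1 lane, without treatment beyond the culture medium. The thymi were C57BL/6J, and the strain of the fibroblasts is not given in the sources used here. ORFTOCs were reaggregates of thymic epithelial cells that had been grown as organoids, embryonic thymus cells that had been freed of epithelium and embryonic fibroblasts. FTOCs were intact embryonic thymic lobes in the same medium, which held FGF7 and at first thiazovivin. The organoid epithelium came from older embryos than the other thymus cells and the lobes. Neither kind of culture has a circulation. Per the study's methods, the medium was gathered with the tissue so that T cells that had recently left were included. The mature cells read here can thus come from tissue or medium. In each group 2 cultures were mixed before an antibody barcode was added, so each pool counts as 1 sample and the comparison has no replicates.

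A thymocyte first rearranges its TRB genes, then becomes a CD4 and CD8 double-positive (DP) cell, rearranges the α chain (TRA), and is tested for signalling (the stage called selected here) before it matures as a single-positive (SP) cell. Klf2 encodes a zinc-finger transcription factor that is switched on in the last steps and drives S1pr1. S1pr1 encodes the receptor for sphingosine 1-phosphate, the lipid gradient that draws mature cells out of the thymus. The Gimap genes encode GTPases of lymphocyte membranes that bear on lymphocyte survival. Ms4a4b and Ms4a6b encode membrane-spanning proteins of T cells.

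Klf2 lies on chromosome 8 (72319062 to 72321654, mm10) and S1pr1 on chromosome 3 (115710433 to 115715055). Ms4a4b (11443558 to 11463549) and Ms4a6b (11518559 to 11530403) are neighbours in a family on chromosome 19. Gimap4 (48684578 to 48692062), Gimap6 (48701583 to 48708244) and Gimap3 (48764464 to 48770851) belong to a run of 8 Gimap genes within 123666 bases of chromosome 6. Reads of related genes can be hard to tell apart, so stretches of 60 bases shared with other genes were counted. Such stretches made up 4.81% of those in Gimap3 transcripts, most of them shared with Gimap5, 2.93% of those in Ms4a4b and 1.76% of those in Ms4a6b, and none were found for the other members.

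The 3 Gimap members are close on the chromosome and differed in their pattern over stages, as described below, so the 250 bases before the start of each are shown (RefSeq, GRCm38.p6, 5′ to 3′ on the strand of the gene). Capitals mark CACCC or its reverse complement, the core letters bound by KLF-type zinc fingers, the family of Klf2.
Gimap3, chr6:48770852-48771101, minus strand: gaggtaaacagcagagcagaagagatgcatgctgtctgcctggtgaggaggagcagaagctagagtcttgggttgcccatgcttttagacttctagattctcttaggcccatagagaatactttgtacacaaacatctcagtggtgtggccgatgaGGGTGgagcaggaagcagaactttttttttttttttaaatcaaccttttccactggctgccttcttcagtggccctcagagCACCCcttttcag
Gimap4, chr6:48684328-48684577, plus strand: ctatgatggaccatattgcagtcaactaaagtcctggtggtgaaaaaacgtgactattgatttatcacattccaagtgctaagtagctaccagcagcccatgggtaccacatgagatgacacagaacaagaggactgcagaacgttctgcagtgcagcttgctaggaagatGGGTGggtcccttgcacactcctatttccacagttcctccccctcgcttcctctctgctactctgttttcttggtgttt
Gimap6, chr6:48708245-48708494, minus strand: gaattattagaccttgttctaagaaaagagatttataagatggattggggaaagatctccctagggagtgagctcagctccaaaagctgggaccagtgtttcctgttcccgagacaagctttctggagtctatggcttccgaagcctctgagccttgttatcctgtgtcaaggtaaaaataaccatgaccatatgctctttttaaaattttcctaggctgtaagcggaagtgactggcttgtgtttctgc
The Gimap3 window held 2 matches, the Gimap4 window 1 and the Gimap6 window 0. Promoter windows were found for 6 of the members, and 5 of these 6 held CACCC on either strand, as did 51.3% of 27025 windows of the same length. The letters TGTGGT, bound by RUNX factors, were in the Gimap4 window alone among the members and in 14.2% of all windows, and GTAAACA, bound by FOXO factors, was in the Gimap3 window alone and in 3.09% of all. These matches are descriptions of letters and say nothing of binding.

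Clusters were formed without the 7 genes and without the other genes of the egress, Gimap, Ms4a and maturation lists, and were named from marker lists, so a name means resemblance to those markers. The thymocyte classes were 673 cycling thymocytes, 2054 DP cells, 274 selected cells and 459 mature SP cells (273 from ORFTOC and 186 from FTOC). The mature SP cells had 520.8 UMIs (unique molecular identifiers, 1 per captured RNA molecule) of the maturation marker Ccr7 per 1000000 UMIs (CPM), against 24.9 CPM in DP cells. Their Rag1 level, a gene of receptor rearrangement, was 20.7 CPM against 1632 CPM in DP cells. Ccr7 and Rag1 were among the naming markers, so these values restate the naming. The other lymphoid classes were 338 cytotoxic lymphocyte-like, 179 γδ T-like, 571 ILC3-like and 253 ILC2-like cells (ILC, innate lymphoid cell), of which the ILC2-like class held only 19 FTOC cells. Clusters 6, 8, 14 and 16 met no class rule, and clusters 6 and 8 are described by number. Cluster 14 (146 cells), whose best-scoring markers were epithelial, and cluster 16 (31 cells) were counted among the immune cells and are not described. Median depth ran from 1610 UMIs per cell in DP to 10950 in cytotoxic cells among these classes, with 5868 in mature SP cells. All intervals are at 95% and hold counting error alone, and no test was possible with 1 sample per pool.

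The summed level of the 7 genes was 528.3 CPM at the DP stage (505.0 to 552.4). It was 1174 CPM at the selected stage (1087 to 1266), and the mature SP class reached 4010 CPM (3937 to 4084). The log2 ratio of mature SP over DP was 2.92 (2.85 to 2.99), and it was 2.93 in ORFTOC and 2.94 in FTOC. Of the members, 6 of 7 were at least 2-fold higher in mature SP cells, while 6.89% of the 9342 genes with at least 30 UMIs were. The median log2 ratio was 5.17 over the members and -0.66 over all genes tested. The clusters were built from other genes of the same cells, so these differences describe the stages and are not a test.

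**Figure D1:**
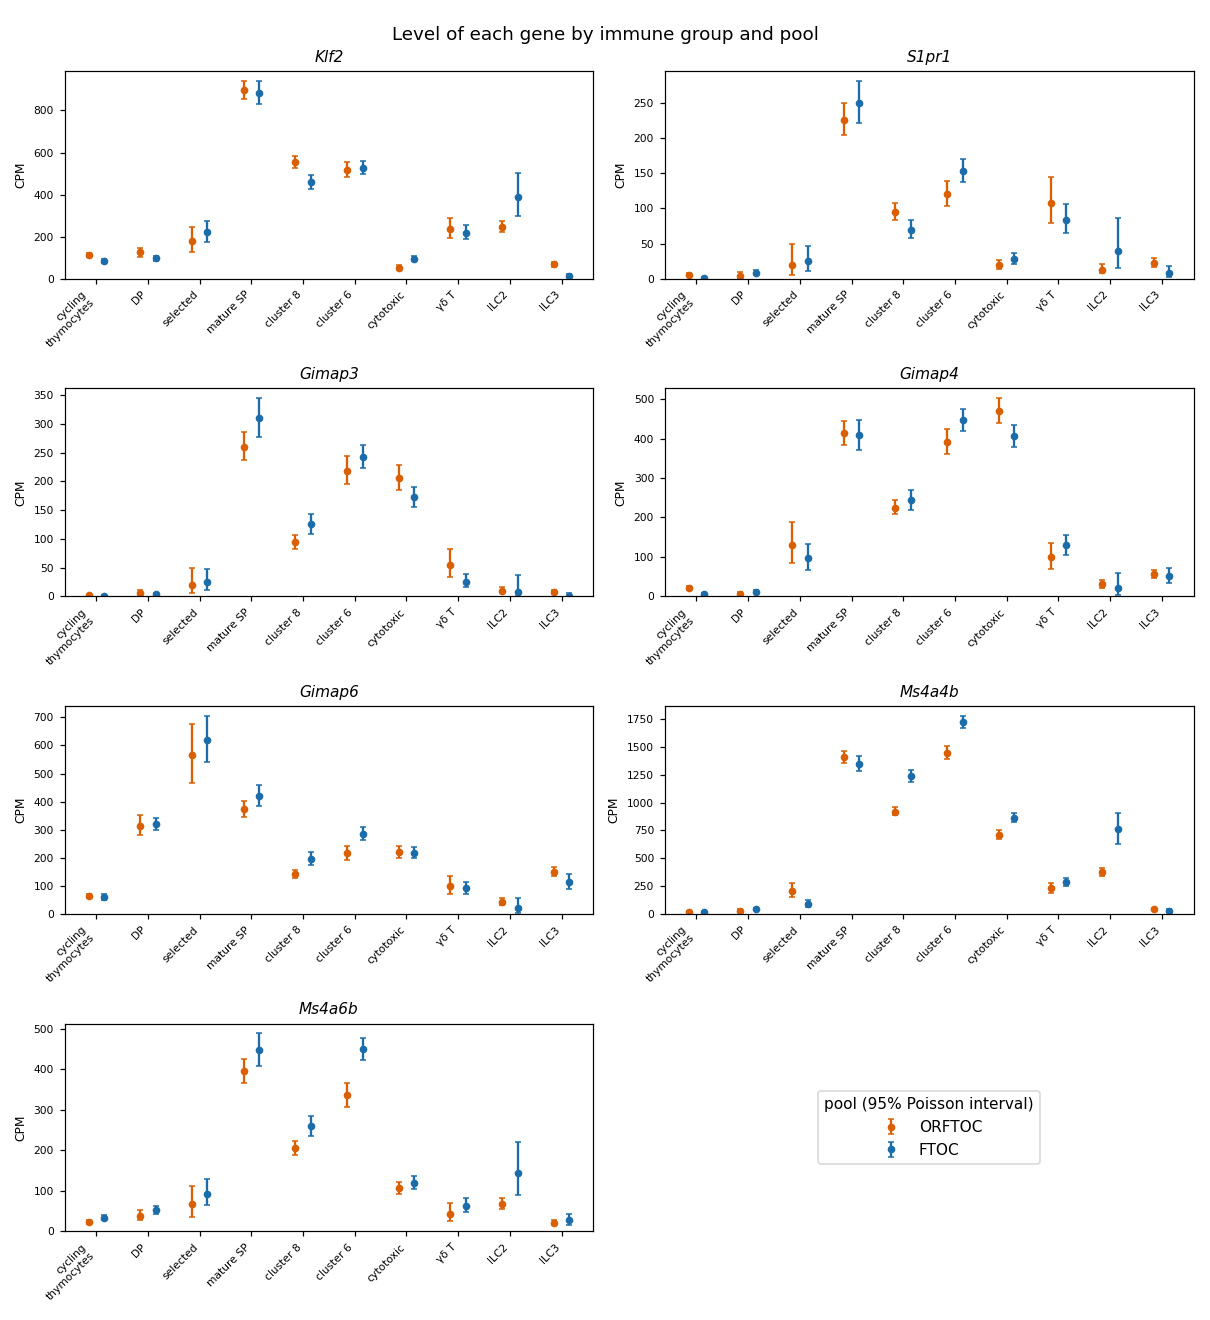
Level of each gene in CPM (vertical axis, linear, a separate scale per gene) in 10 immune groups (horizontal axis). Points are ORFTOC (orange) and FTOC (blue) sums over cells and bars are 95% Poisson intervals. For 6 of the genes the mature SP class or cluster 6 or the cytotoxic class stands highest, and Gimap6 stands highest in selected cells at 599.2 CPM over both pools.

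DP cells had 103.9 CPM of Klf2 (93.7 to 115). Selected cells had 205.5 CPM (170 to 246), and mature SP cells had 891.7 CPM (857 to 927), with 896.7 in the ORFTOC pool and 883.5 in the FTOC pool. Klf2 was thus 8.58-fold higher in mature SP than in DP cells (7.70 to 9.58), and its interval in mature SP cells lay above those of all other groups. DP and cycling cells, at 103.9 and 100.3 CPM, had overlapping intervals.

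S1pr1, whose product senses the exit signal, stood at 6.56 CPM in DP cells (4.20 to 9.76) and at 22.6 CPM once selected (12.1 to 38.7). Mature SP cells had 235.6 CPM (218 to 254), with 226.5 in the ORFTOC pool and 250.5 in the FTOC pool. The DP level rested on 24 UMIs and was close to that of epithelial cells (6.97 CPM), which should lack most lymphoid transcripts, so it is read as background. In cells thinned to 1000 UMIs each, S1pr1 was found in 20.1% of mature SP cells (16.5 to 24.1), 0.821% of DP cells (0.470 to 1.33) and 0.503% of epithelial cells (0.251 to 0.898), whose median depths before thinning were 5868, 1610 and 12744 UMIs. At full depth the share in mature SP cells was 64.1%.

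Both Ms4a genes were highest at the mature SP stage of the thymocyte series. Ms4a4b was at 38.6 CPM in DP, 132.4 in selected and 1386 in mature SP cells, a 35.9-fold step from DP to mature SP (30.4 to 42.8). Ms4a6b was at 48.7, 83.6 and 415.5 CPM in the same order, an 8.54-fold step (7.29 to 10.1).

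The 3 Gimap members followed 2 courses. Gimap3 went from 3.55 CPM in DP through 22.6 in selected to 279.5 in mature SP cells, and Gimap4 from 9.02 through 108.0 to 411.2 CPM. Their log2 ratios of mature SP over DP were 6.30 (5.51 to 7.21) and 5.51 (5.01 to 6.06). Gimap6 was already at 318.0 CPM in DP cells (300 to 337). It peaked at 599.2 CPM in the selected class (538 to 666) and stood at 390.9 CPM after that, in mature SP cells (368 to 415). Its log2 ratio of mature SP over DP was 0.30 (0.18 to 0.42), and it was -0.12 when clusters were formed with the members and listed genes. From selected to mature SP cells the Gimap6 log2 ratio was -0.62 (-0.79 to -0.44), the only member with a ratio below 0 in that step. The median over all genes tested was -0.52 in that step, so the Gimap6 value was near that of a typical gene. From DP to mature SP cells that median was -0.66.

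The other Gimap genes of the run also differed from one another. In chromosomal order the log2 ratios of mature SP over DP were -0.22 for Gimap8, -0.72 for Gimap9, 5.51 for Gimap4, 0.30 for Gimap6, 1.65 for Gimap7, -0.55 for Gimap1, 2.99 for Gimap5 and 6.30 for Gimap3. Of the 5 genes that were not members, Gimap5 and Gimap7 were at least 2-fold higher in mature SP cells and none was 2-fold lower. Over all 9342 genes tested, 6.89% were at least 2-fold higher and 32.4% at least 2-fold lower. Gimap9 was highest in selected cells, at 327.5 CPM against 227.8 in DP and 138.0 in mature SP cells, and Gimap1 was highest in DP cells, at 307.3 CPM against 252.6 and 210.0. Genes with positive and negative ratios were interspersed along the chromosome. The median log2 ratio over all genes tested was -0.66, so the values of Gimap1 and Gimap9 were near that of a typical gene. The Gimap8 interval (-0.53 to 0.08) held 0. Gimap5 shares stretches with Gimap3, and how far the 2 counts mix was not tested.

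**Figure D2:**
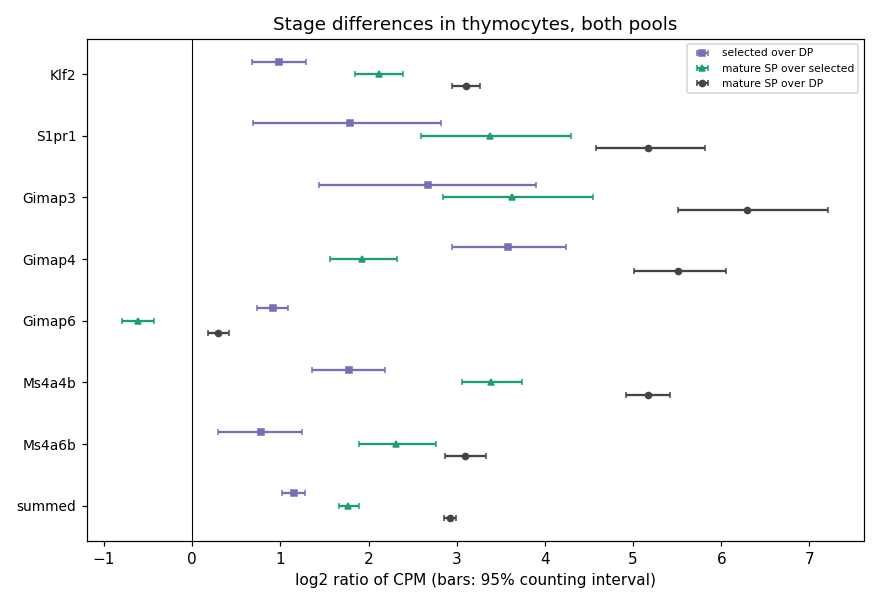
Log2 ratio of CPM (horizontal axis) for each gene and for their sum, with 95% counting intervals, both pools together: selected over DP (squares), mature SP over selected (triangles) and mature SP over DP (circles). Gimap4 has its larger step before the selected stage (3.58) and Ms4a4b after it (3.39), the 2 S1pr1 intervals overlap, and the Gimap6 step into mature SP is at -0.62.

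The step into the selected stage and the step out of it differed between genes. Of 6 members with enough UMIs, 3 (Gimap4, Ms4a4b and S1pr1) were at least 2-fold higher in selected than in DP cells, as were 3.56% of 8757 genes. Gimap4 had a log2 ratio of 3.58 into the selected stage (2.95 to 4.24) and 1.93 out of it (1.56 to 2.32). The order was the reverse for Klf2, with 0.98 into it (0.67 to 1.29) and 2.12 out of it (1.85 to 2.40), and for Ms4a4b, with 1.78 (1.36 to 2.19) and 3.39 (3.06 to 3.73). For S1pr1 the steps were 1.79 (0.69 to 2.82) and 3.38 (2.60 to 4.30), and their intervals overlapped. The first S1pr1 step starts from the background level.

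The other genes of the S1P and egress list were mixed. Over all 9342 genes tested, 6.89% were at least 2-fold higher in mature SP than in DP cells and 32.4% at least 2-fold lower. Of the 21 listed genes, 14 had enough UMIs, 5 were at least 2-fold higher and 1 was 2-fold lower, with a median log2 ratio of 0.19. Among those higher, Ccr7, which guides cells to the medulla, had 4.39, Itgb7 1.78, S1pr4 1.68 and Cd69, whose product holds S1pr1 inside the cell, 1.45. Cd69 stood highest in selected cells, at 198.6 CPM against 22.1 in DP and 60.4 in mature SP cells. Klf13 was the gene that was lower, at -1.12, and Foxo1, known as an activator of Klf2, had 0.49. Of the maturation genes listed as rising, 8 of 10 were at least 2-fold higher, among them Slfn1 (4.56), Il7r (4.53) and H2-Q7 (3.67). Of those listed as falling, 6 of 6 were at least 2-fold lower (32.4% of all 9342 genes were), among them Cd24a (-3.11) and Ccr9 (-2.22). The other 4 of these (Rag1, Rag2, Dntt and Cd1d1) were also markers that named the DP class, as Ccr7 was for mature SP and Cd69 for selected cells, so their differences restate the naming. Of the other Ms4a genes 3 of 8 had enough UMIs, and Ms4a4c, a relative of Ms4a4b, went from 1 UMI in DP cells to 105.0 CPM (299 UMIs) in mature SP cells.

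Members were found together in single cells of the mature SP class. With each cell thinned to 1000 UMIs, 3 or more of the 7 genes were detected in 52.8% of mature SP cells, 4.49% of selected cells and 0.205% of DP cells. None was detected in 5.46%, 38.6% and 62.4% of these cells. Among thymocytes with 1 TRB chain, S1pr1 was detected in 12.6% of 396 cells with a Klf2 UMI (9.52 to 16.3) and in 1.92% of 2504 cells without (1.42 to 2.53). Within the mature SP class the shares were 22.4% (17.4 to 28.2) and 17.4% (12.5 to 23.1), with overlapping intervals, so the association over all thymocytes was not detected within this class at this depth. Among all pairs of members in this class, intervals were apart for Gimap4 and Ms4a4b alone. Gimap4 was detected in 37.7% of mature SP cells with an Ms4a4b UMI (32.3 to 43.3) and in 22.8% of those without (16.2 to 30.5).

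**Figure D3:**
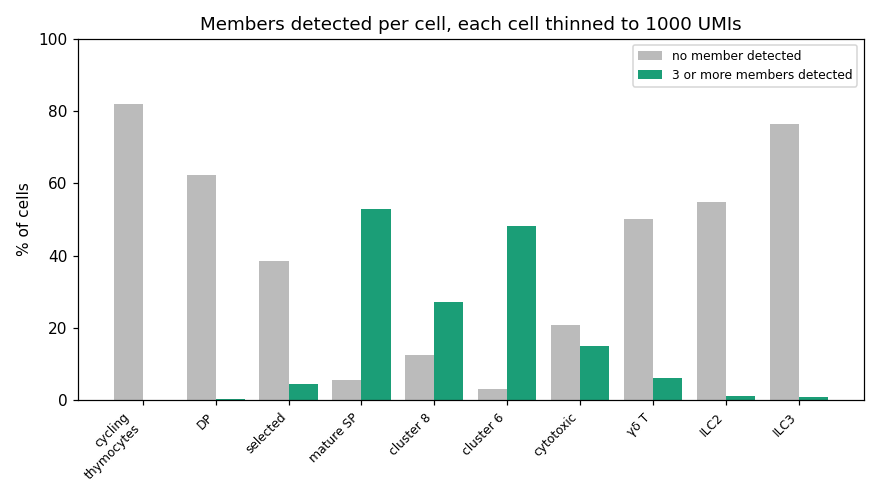
Share of cells in percent (vertical axis) with none of the 7 genes detected (grey) and with 3 or more detected (green) in 10 immune groups, each cell thinned to 1000 UMIs. Mature SP cells (52.8%) and cluster 6 (48.2%) have the highest bars for 3 or more genes.

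The pools were compared at the mature SP stage to ask whether thymocytes reached the same late program on organoid-derived epithelium as in intact lobes. ORFTOC mature SP cells had a summed level of 3973 CPM (3881 to 4068). The FTOC ones had 4070 CPM (3951 to 4191), which gives a log2 ratio of ORFTOC over FTOC of -0.03 (-0.09 to 0.02). None of the 7 genes differed 2-fold. Over all 6974 genes tested, 1.29% were at least 2-fold higher and 1.41% at least 2-fold lower in ORFTOC, so a count of 0 members is near the share of all genes. Klf2 had a log2 ratio of 0.02 (-0.10 to 0.14), S1pr1 -0.15 (-0.37 to 0.08), Gimap4 0.02 (-0.16 to 0.19) and Ms4a4b 0.06 (-0.03 to 0.16). The intervals of Gimap3, at -0.25 (-0.46 to -0.04), and Ms4a6b, at -0.18 (-0.35 to -0.01), lay below 0. Ms4a6b kept this among cells with TRB and TRA chains, at -0.22 (-0.41 to -0.02), and Gimap3 then had -0.17 (-0.41 to 0.07). With cells thinned, S1pr1 was detected in 20.5% of ORFTOC (15.9 to 25.8) and 19.5% of FTOC mature SP cells (14.0 to 25.9).

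Earlier thymocyte classes were compared in the same way, on fewer UMIs. In cycling thymocytes Gimap4 had 20.2 CPM (91 UMIs) in the ORFTOC pool and 5.15 (14 UMIs) in the FTOC pool, a log2 ratio of 1.98 (1.16 to 2.90). S1pr1 there rested on 24 and 2 UMIs, for 2.86 (0.85 to 5.99), and Klf2 had 0.41 (0.19 to 0.65) and Ms4a6b -0.52 (-0.94 to -0.10). Klf2 was also higher in ORFTOC DP cells, at 0.38 (0.06 to 0.69), while the intervals of the other members in DP cells held 0. In selected cells Ms4a4b had 205.6 CPM in the ORFTOC pool and 90.4 in the FTOC pool, a ratio of 1.19 (0.50 to 1.89), and the intervals of the other members held 0.

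In the lists of related genes few differed 2-fold between the pools in mature SP cells, to which all values of this paragraph belong. None of 14 S1P and egress genes, 0 of 5 other Gimap genes and 1 of 10 rising maturation genes (H2-Q6, at -1.69 on 16 and 32 UMIs) did. Over all 6974 genes tested, 1.29% were at least 2-fold higher and 1.41% at least 2-fold lower in ORFTOC. Counts of 0 in lists this short are thus near the share of all genes. Ms4a4c had 76.8 CPM in the ORFTOC pool against 150.5 in the FTOC pool, for a log2 ratio of -0.97 (-1.31 to -0.63). Ccr7 had -0.25 (-0.40 to -0.10). Of the falling maturation genes 1 of 5, Dntt, was past 2-fold. Dntt and Cd24a were lower in ORFTOC, at -1.69 (-2.77 to -0.68) and -0.91 (-1.54 to -0.29), on 13 and 42 UMIs there. Each pool was 1 sample, so how far cultures of 1 kind differ in these genes is not known.

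**Figure D4:**
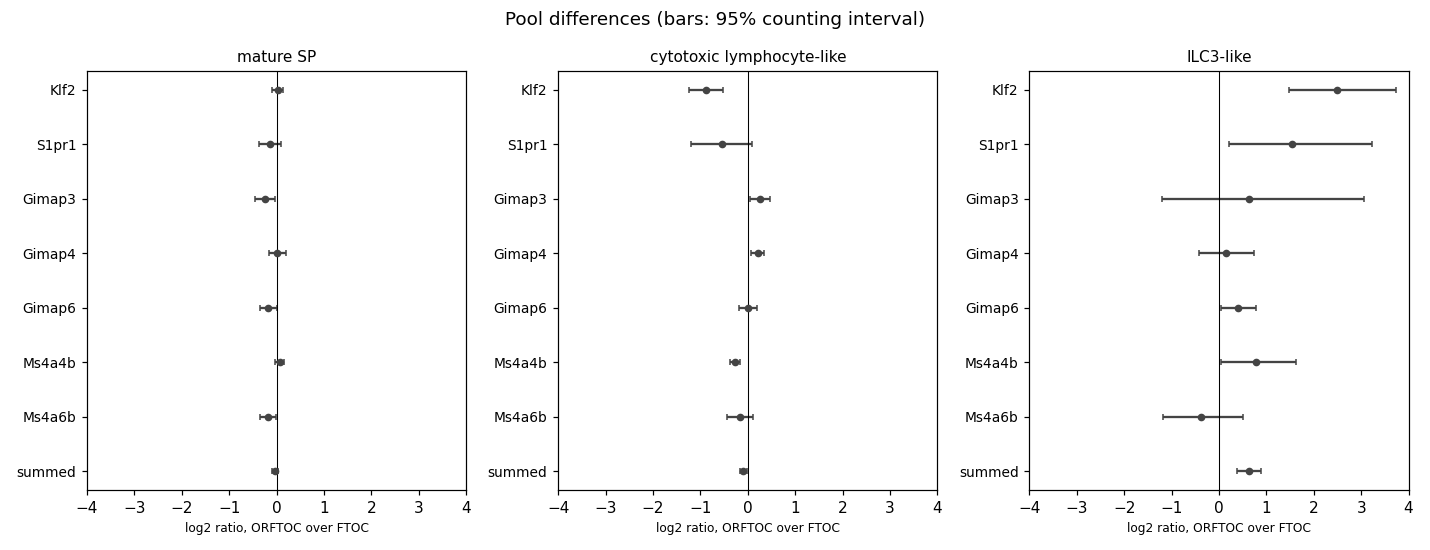
Log2 ratio of ORFTOC over FTOC (horizontal axis, same scale in all panels) for each gene and their sum in mature SP, cytotoxic lymphocyte-like and ILC3-like cells, with 95% counting intervals, where Gimap3 in ILC3-like cells had 15 ORFTOC and 0 FTOC UMIs and is drawn as a lower bound with the FTOC count set to 3. The points in mature SP cells lie between -0.25 and 0.06, and Klf2 lies at -0.88 in cytotoxic cells and 2.49 in ILC3-like cells.

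Mature SP cells were also divided by coreceptor. Cells with at least 2 Cd8a or Cd8b1 UMIs and no Cd4 UMI numbered 169 (CD8 side), and cells with at least 1 Cd4 UMI and no Cd8a or Cd8b1 UMI numbered 100 (CD4 side). All 7 genes were lower on the CD8 side, although none reached 2-fold over both pools together (2.06% of 5574 genes did). Gimap3 was at 197.4 CPM on the CD8 side and 370.9 on the CD4 side, a log2 ratio of -0.91 (-1.18 to -0.64). S1pr1 was at 162.8 and 293.4 CPM, a ratio of -0.85 (-1.15 to -0.55). Klf2 differed least, at -0.19 (-0.33 to -0.04). By pool, the summed ratios were -0.35 for ORFTOC (-0.43 to -0.26) and -0.41 for FTOC (-0.53 to -0.30). In the FTOC pool alone Gimap3 passed 2-fold, at -1.05 (-1.50 to -0.60), as did 2.06% of 2529 genes. The remaining 190 mature SP cells could not be placed on a side. Over both pools the median log2 ratio of CD8 over CD4 side was 0.07 for all genes tested. It was -0.30 for 9 rising maturation genes and 0.96 for 3 falling ones. Whether the sides differ in maturity was not tested.

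The chain status of a cell came from a separate TCR library, in which 4649 barcodes had filtered contigs and 3911 of these were among the cells kept. The 1598 immune cells with TRB and TRA had a summed level of 2397 CPM, and the 2054 with TRB only had 826.7 CPM, a log2 ratio of 1.54 (1.50 to 1.57). Of the members, 6 of 7 were at least 2-fold higher with both chains, as were 3.21% of 11142 genes. S1pr1 had the highest ratio, 2.07 (1.88 to 2.27), and Gimap6 the lowest, 0.73 (0.64 to 0.82). Split by pool, the summed ratio was 1.94 for ORFTOC and 1.15 for FTOC, and their intervals did not overlap.

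The makeup of the cells moved with chain status. Mature SP cells were 21.6% of cells with both chains (19.6 to 23.7) and 2.53% of cells with TRB only (1.90 to 3.31). Within DP cells the summed ratio was 0.01 (-0.14 to 0.15), and within mature SP cells it was -0.02 (-0.11 to 0.07). Within selected cells it was 0.56 (0.24 to 0.88), with Klf2 at 1.43 (0.47 to 2.55) on 66 cells with TRB only. Klf2 in DP cells was lower with both chains, at -0.44 (-0.81 to -0.08). The makeup also differed between pools, since mature SP cells were 30.1% of ORFTOC cells with both chains (26.7 to 33.6) and 14.9% of FTOC ones (12.6 to 17.4).

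**Figure D5:**
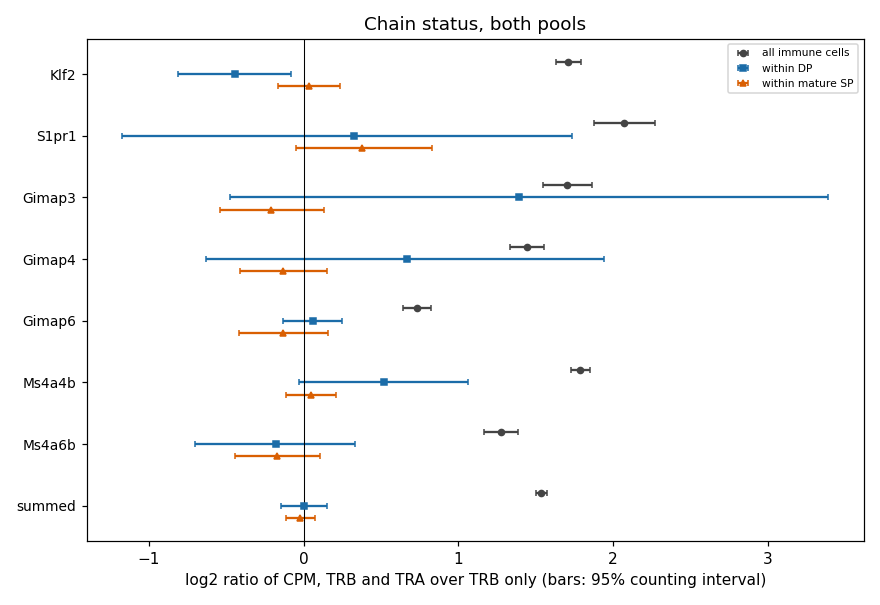
Log2 ratio of CPM in cells with TRB and TRA over cells with TRB only (horizontal axis) for each gene and their sum, with 95% counting intervals: all immune cells (circles), DP cells (squares) and mature SP cells (triangles). The summed ratio is 1.54 over all immune cells, 0.01 within DP and -0.02 within mature SP cells.

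Cluster 8 held 307 cells, was led by Igfbp4, Asf1b and Tk1 and had markers of cycling thymocytes, and 63.2% of its cells carried TRB and TRA. Each of the 7 genes was at least 2-fold higher there than in cycling thymocytes (8.68% of 9753 genes were), with log2 ratios from 1.38 for Gimap6 to 6.76 for Gimap3 (5.71 to 8.09, on 7 UMIs in cycling thymocytes). Klf2 was at 520.1 CPM and Ms4a4b at 1037 CPM. Relative to mature SP cells the summed ratio was -0.76 (-0.80 to -0.72), with S1pr1 at -1.46 (-1.65 to -1.28) and Ms4a4b at -0.42 (-0.48 to -0.36). Cluster 8 cells had a median of 13500 UMIs.

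In the other lymphoid classes the summed level was 1114 CPM, a log2 ratio of -1.85 (-1.89 to -1.81) over mature SP cells, and 6 of 7 members were at least 2-fold lower, as were 3.95% of 10509 genes. The exception was Gimap4, at -0.92 (-1.03 to -0.82). Cluster 6 is not in this sum because it stayed unnamed, under a rule set after leading genes had been seen. Its leading genes included cytotoxic and γδ T markers, so the sum covers the 4 named classes and not all other lymphoid cells. The summed level of cluster 6 was 3600 CPM, above the 1114 CPM of those classes. No member was 2-fold lower in cluster 6 than in mature SP cells (3.21% of 8858 genes were). The classes were not alike, and the 4 are described in turn.

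Cytotoxic lymphocyte-like cells had Gimap3, Gimap4 and Ms4a4b at high levels and the exit pair, Klf2 and S1pr1, at low ones. Gimap4 was at 436.0 CPM, Gimap3 at 188.2 and Ms4a4b at 792.3. Klf2 was at 74.3 CPM and S1pr1 at 23.7 (19.1 to 29.1), where epithelial cells had 37.1 and 6.97. The Gimap4 intervals of cytotoxic, cluster 6 and mature SP cells overlapped. The 88 cytotoxic cells with 1 TRB chain had 141.0 CPM of Klf2 and 40.5 of S1pr1, and the 247 without a TRB chain had 37.7 and 14.7 CPM. The log2 ratios were 1.90 (1.54 to 2.28) for Klf2 and 1.46 (0.82 to 2.11) for S1pr1, the 2 members past 2-fold (0.81% of 8021 genes were), and between -0.36 and 0.22 for the other members.

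Cluster 6 held 436 cells led by Ly6c2, Jchain and Cxcr3, of which 42.4% had 1 TRB chain. Its best-scoring markers were those of γδ T cells. Of its 10 leading genes 4 (Ly6c2, Klrd1, Nkg7 and Eomes) were cytotoxic markers. Its summed level, 3600 CPM, was second only to mature SP cells. Ms4a4b, at 1615 CPM, was higher there than in any other group, while Klf2 (523.0 CPM) and S1pr1 (140.2 CPM) were below the mature SP level, at log2 ratios of -0.77 (-0.85 to -0.68) and -0.75 (-0.92 to -0.58). Cells of cluster 6 with and without a TRB chain had a summed log2 ratio of -0.01 (-0.05 to 0.04).

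γδ T-like cells had 91.9 CPM of S1pr1 and 224.6 of Klf2, and their S1pr1 interval overlapped that of cluster 8. ILC2-like cells had 260.4 CPM of Klf2 and 414.6 of Ms4a4b with 15.4 of S1pr1, and with 19 FTOC cells no pool difference is read there. Their summed level of 12 immediate-early and stress genes (Fos, Jun, Dusp1 and others) was 28587 CPM, against 1631 in mature SP cells, and its part in the Klf2 level was not tested. ILC3-like cells had the lowest summed level of the 4 classes, 337.4 CPM, of which Gimap6 took 141.6.

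Klf2 differed between pools in opposite directions in 2 of these classes. ILC3-like cells had 68.1 CPM of Klf2 (145 UMIs) in the ORFTOC pool but 12.1 (8 UMIs) in the FTOC pool, for a log2 ratio of 2.49 (1.47 to 3.72). Cytotoxic cells had 51.4 CPM in the ORFTOC pool and 94.6 in the other, for a ratio of -0.88 (-1.25 to -0.52). Of 6 members with enough UMIs in ILC3-like cells 2 were at least 2-fold higher in ORFTOC (2.81% of 8071 genes were), the other being S1pr1 at 1.54 (0.22 to 3.23). The summed log2 ratio of the stress genes was 0.53 (0.48 to 0.59) in ILC3-like and -0.15 (-0.21 to -0.08) in cytotoxic cells, the same direction as Klf2. Of 10 stress genes with enough UMIs in ILC3-like cells, 1 was at least 2-fold higher and 1 at least 2-fold lower in ORFTOC. Over all 8071 genes these shares were 2.81% and 1.33%. DP cells also had both in the same direction, at 0.13 (0.05 to 0.21) for the stress genes and 124.4 (ORFTOC) against 95.7 CPM (FTOC) of Klf2. In cluster 6 the stress genes had -0.09 (-0.17 to -0.01). Its Klf2 levels of 516.6 (481 to 554) against 527.3 CPM (498 to 558) had overlapping intervals, so no Klf2 direction is read. Klf2 intervals of the pools also overlapped in selected and γδ T-like cells, with stress intervals of -0.08 to 0.29 and -0.20 to 0.02. The same held in mature SP cells, with stress genes at -0.24 (-0.32 to -0.15) and Klf2 at 0.02. Cycling thymocytes had -0.52 (-0.62 to -0.43) for the stress genes and 0.41 for Klf2, and cluster 8 had -0.24 (-0.31 to -0.16) and 0.28. The part of the stress genes in the Klf2 differences was not tested.

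Outside lymphoid cells Klf2 was at 398.1 CPM in mesenchymal and 145.7 in macrophage-like cells, and S1pr1 at 35.4 and 11.5 CPM. Immune cells held 74.6% of all Klf2 UMIs and 83.0% of S1pr1 UMIs, and between 97.7% and 98.6% of those of the Gimap and Ms4a members. Ms4a6b was at 192.0 CPM in macrophage-like cells. In epithelial cells the Gimap and Ms4a members lay between 1.38 and 8.69 CPM.

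Across 25 class and pool groups of at least 20 immune cells, log2 levels of Gimap3 and Gimap4 had a Pearson r of 0.93, and Gimap6 had r between 0.40 and 0.56 with the other 6 members. Klf2 and S1pr1 had r = 0.75. The genes most like the summed members among 6927 genes were Pitpnc1 (0.89), Prkch (0.84) and Add3 (0.83). Gimap6 was most like Pdlim2 (0.93), Txk (0.91) and Ablim1 (0.91), Gimap4 like Tmsb10 (0.91) and Gimap5 (0.91) of the same run, and Ms4a4b like Klk8 (0.91). The groups shared 1 library and its depth, so these values are descriptions with no test.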

How the data were processed

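Per the labels and the study's methods, the authors aligned the reads to mm10 with Cell Ranger 6.1.2 and used Seurat 4.2.0. The deposited matrix holds raw counts of UMIs and hashtags, and its header names another major Cell Ranger version. The deposited contig list holds filtered TCR contigs with their UMI counts. Cells with at least 600 genes and 0.4 to 10% mitochondrial UMIs were kept (10245), hashtags were assigned with HTODemux (8983 single cells) and 591 doublets within pools were removed by a neighbour rule rebuilt from the study's methods, leaving 8392 cells with 42775371 (ORFTOC) and 29250988 (FTOC) UMIs.

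Counts were normalised for clustering alone with SCTransform, cell cycle scores regressed out (sctransform 0.4.2, Seurat 5.3.0, R 4.3.3, 18 components, resolution 1 for immune cells). A cluster took the class whose markers scored highest and stayed unnamed when another class held as many of its 10 leading genes, a rule set after leading genes had been seen. Levels are UMI sums as CPM, which weigh deep cells more, with exact Poisson intervals. Ratios carry intervals from the exact binomial and shares Clopper-Pearson intervals, and a count of 0 was set to 3 in ratios. Ratio scripts (Python 3.11.15, scipy 1.17.1) were tested on simulated data. The members, lists, motifs and comparisons were chosen with earlier results of these data known, and the stress genes after the Klf2 pool differences had been seen. All members are named by rule, and genes of the lists as examples, with 1 listed gene not reported here. The alternatives numbered 13, with 3 added after seeing the data.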

Additional observations from a re-analysis of the deposited data

Results flagged for a closer look

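Klf2 went in opposite directions between the pools in 2 lymphoid classes. The log2 ratio of ORFTOC over FTOC was 2.49 in ILC3-like cells (1.47 to 3.72, 451 against 120 cells) and -0.88 in cytotoxic lymphocyte-like cells (-1.25 to -0.52, 168 against 170 cells). The difference between the classes was not tested, since each pool is 1 sample. The FTOC value in ILC3-like cells rests on 8 UMIs.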

How the results depend on the processing

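No paired analysis was possible because each pool is 1 sample and no result comes from a test. The count of 6 members at least 2-fold higher in mature SP than in DP cells was 6 in all 13 alternatives that gave it. No cluster was named mature SP with hashtags set by ratio or with within-pool doublets kept, so these 2 settings gave a value for chain status alone. In settings chosen after seeing the data, ties in naming were settled by score. The summed log2 ratio of mature SP over DP, 2.92, became 2.85 with at least 1000 genes, 3.07 with equal cell weight, 2.63 with clusters formed with the members and listed genes (where Gimap6 was at -0.12), 3.03 with log-normalised counts, 2.76 in cells with Xist and no Y-linked UMI, 2.74 with hashtags by ratio and ties settled, and 2.81 with doublets kept and ties settled. The ORFTOC over FTOC ratio in mature SP cells, -0.03, became -0.15 with the members in clustering and -0.14 in cells with Xist. The chain status ratio, 1.54, became 1.49 with hashtags by ratio, with or without ties settled, 1.32 with equal cell weight, 1.47 with contigs of at least 3 UMIs and 1.30 in cells with Xist. The ratio of other lymphoid over mature SP cells, -1.85, became -1.92, -2.17, -1.61, -2.15 and -1.72 with 1000 genes, equal weight, members in clustering, log-normalised counts and Xist. The share of mature SP cells with an S1pr1 UMI was 20.1% thinned and 64.1% at full depth. The cause of these moves was not tested, except that thinning removes UMIs by construction. S1pr1, Gimap3 and Gimap4 rest on 24, 13 and 33 UMIs in DP cells, Gimap3 on 7 in cycling thymocytes and Klf2 on 8 in FTOC ILC3-like cells, which limits the ratios against them.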
